A study of Homo sapiens with 28 samples.

Results

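The genes described here are the 46 interferon response and antigen presentation genes listed by symbol for this module, which were 46 of the 58278 genes in the count table. They were followed across 28 RNA-seq libraries of HCT116, a human colorectal carcinoma cell line, taken from 16 xenograft tumors and 12 cultures grown from such tumors. HCT116 cells carrying Luciferase-GFP were implanted under the skin of 5-week-old male NOD SCID mice (NOD.CB17 with the Prkdc scid allele), and the mice then received 1 oral dose a day for 23 days. Control mice received vehicle (3 tumors), and the others received Palbociclib, a CDK4/6 inhibitor, at 100 mg/kg (5 tumors), Telaglenastat, a glutaminase inhibitor, at 150 mg/kg (4 tumors), or the Combination of both at those doses (4 tumors). The sample labels spell the glutaminase inhibitor Telaglenestat. For each treatment there were also 3 cultures, obtained by collagenase and trypsin digestion of excised tumors and grown without drug. The source tumor of each culture is not given, so cultures and tumors were not paired.

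The model has limits for genes of this kind. SCID mice lack mature lymphocytes but keep other host cells, and reads from mouse stroma that align to human genes cannot be separated in these counts. In bulk libraries, fewer cells of a type and less RNA per cell cannot be told apart.

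Interferons are cytokines that cells release when they sense foreign nucleic acid or stress. Their receptors activate transcription factors, STAT2 and IRF9 among them, that bind interferon-stimulated response elements (ISRE) and switch on antiviral genes, many of which feed back on the pathway as sensors, transcription factors or brakes. The same signals raise the machinery that cuts peptides in the proteasome, carries them through the TAP transporter and shows them to T cells on MHC class I molecules. In colorectal cancers this machinery is known as a point of immune recognition and of immune escape.

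Promoter sequences were looked up because most of these genes are known interferon targets. Of the 46 genes, 37 matched an entry of the RefSeq promoter table (GRCh38.p14, 250 bases before to 50 after a gene start), with DDX58 listed there as RIGI. Some genes have several starts, which gave 48 windows. The ISRE letters GAAANNGAAA were present on either strand in 31 of the 48 windows, or 64.6%, and in 27 of the 37 genes. Among all 35116 windows of the same length the share was 3.57%. The letters TTCNNNGAA, the core of the gamma-activated sequence (GAS), were in 12 of the 48 windows, or 25%, against 7.66% of all windows. A match is a string of letters in a window and not a mapped binding site, and the ISRE and GAS strings may overlap each other. The genes were listed as interferon response genes, a choice that favors such letters in advance. Windows of a gene can overlap and hold the same match, as for IFI27 and IFI44. The 10 stretches of 200 bases that follow were chosen after the values were seen. They come from IFI, IFIT and OAS genes, ISG15 and BST2, with large and small differences and with and without an ISRE match. They run 5′ to 3′ on the gene's strand, and capitals mark every ISRE match, overlapping matches being merged. IFI44L lies on the plus strand at chr1:78620248-78620447, IFI44 on the plus strand at chr1:78649589-78649788, IFI27 on the plus strand at chr14:94110536-94110735, IFI6 on the minus strand at chr1:27672193-27672392, OAS1 on the plus strand at chr12:112906762-112906961, IFIT1 on the plus strand at chr10:89392423-89392622, ISG15 on the plus strand at chr1:1013297-1013496, IFI35 on the plus strand at chr17:43006584-43006783, IFIT5 on the plus strand at chr10:89414368-89414567 and BST2 on the minus strand at chr19:17405631-17405830.
IFI44L: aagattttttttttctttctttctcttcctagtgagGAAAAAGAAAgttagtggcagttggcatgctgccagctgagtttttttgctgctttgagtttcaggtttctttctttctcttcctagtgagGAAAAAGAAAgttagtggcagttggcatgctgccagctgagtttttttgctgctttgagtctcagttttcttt
IFI44: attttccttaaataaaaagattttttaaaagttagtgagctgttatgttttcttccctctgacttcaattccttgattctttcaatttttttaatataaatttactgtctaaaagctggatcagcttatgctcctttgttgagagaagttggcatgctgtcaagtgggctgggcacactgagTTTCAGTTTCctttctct
IFI27: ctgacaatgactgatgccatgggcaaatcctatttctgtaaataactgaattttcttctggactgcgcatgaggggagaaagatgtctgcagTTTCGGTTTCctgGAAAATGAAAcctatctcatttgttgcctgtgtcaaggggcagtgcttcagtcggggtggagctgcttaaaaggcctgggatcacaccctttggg
IFI6: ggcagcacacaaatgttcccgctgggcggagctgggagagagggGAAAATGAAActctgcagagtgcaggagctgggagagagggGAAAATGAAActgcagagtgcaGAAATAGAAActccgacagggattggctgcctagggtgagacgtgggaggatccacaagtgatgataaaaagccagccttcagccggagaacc
OAS1: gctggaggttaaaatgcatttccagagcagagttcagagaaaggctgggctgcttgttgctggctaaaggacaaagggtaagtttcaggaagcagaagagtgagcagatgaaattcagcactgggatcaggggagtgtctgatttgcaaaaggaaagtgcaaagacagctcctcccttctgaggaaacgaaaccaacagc
IFIT1: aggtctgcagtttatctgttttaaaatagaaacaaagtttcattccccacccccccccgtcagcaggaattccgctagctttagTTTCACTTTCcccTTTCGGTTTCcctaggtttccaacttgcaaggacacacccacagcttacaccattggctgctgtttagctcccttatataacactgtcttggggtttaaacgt
ISG15: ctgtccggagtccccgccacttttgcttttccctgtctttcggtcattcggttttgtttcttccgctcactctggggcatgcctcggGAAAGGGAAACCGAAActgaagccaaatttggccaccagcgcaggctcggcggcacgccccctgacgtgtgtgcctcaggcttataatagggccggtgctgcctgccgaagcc
IFI35: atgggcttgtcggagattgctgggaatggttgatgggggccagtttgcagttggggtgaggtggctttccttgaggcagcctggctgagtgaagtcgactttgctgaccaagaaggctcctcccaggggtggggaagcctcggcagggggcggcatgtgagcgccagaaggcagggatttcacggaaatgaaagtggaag
IFIT5: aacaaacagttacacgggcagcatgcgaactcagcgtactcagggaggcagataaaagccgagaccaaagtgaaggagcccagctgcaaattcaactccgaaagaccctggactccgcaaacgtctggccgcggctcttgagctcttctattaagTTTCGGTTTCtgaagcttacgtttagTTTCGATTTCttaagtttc
BST2: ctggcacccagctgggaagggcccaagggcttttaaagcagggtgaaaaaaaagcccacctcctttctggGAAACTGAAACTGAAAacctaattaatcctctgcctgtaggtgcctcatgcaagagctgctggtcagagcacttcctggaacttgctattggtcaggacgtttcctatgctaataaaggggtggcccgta
In the stretches printed, IFI6 held 3 matches, IFI44 held 1, OAS1 and IFI35 held 0, and each of the others held 2. The full window of IFIT5 held 3, the third running past the gene start. The letters were present and absent among genes with large differences. OAS1, without a match, had a large difference between tumors and cultures. IFI35, also without a match, fell in Telaglenastat tumors, as did ISG15 and IFI27, which carry the letters. The OAS1 and IFI35 stretches each hold GAAA and GAAA with 1 base between them. The letters searched need 2 bases there, so the lack of a match is not read as the lack of an element.

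The libraries held between 6273834 and 13815675 reads on genes. Within groups, log2 CPM (CPM being a gene's count scaled to a fixed library size, after TMM normalization) correlated with Pearson's r between 0.9588 and 0.989, and no libraries were identical. Palbociclib tumor 2 was far below the other 4 Palbociclib tumors in 6 of the 46 genes. Its mitochondrial share of counts was 13.6% (8.28% to 9.58% in the others) and its slope of log2 level on GC content 0.10 (0.32 to 0.37). The mitochondrial share was 6.78% to 7.22% in Control, 6.23% to 9.07% in Telaglenastat and 13.2% to 14.8% in Combination tumors. Relative to the mean of all tumors, Control and Palbociclib tumors had higher levels of GC-rich genes (mean slope of log2 level on GC content 0.26 and 0.29 per SD), whereas Telaglenastat and Combination tumors had lower levels (-0.34 and -0.21). For that reason the calls between tumors are given as deposited and again after the trend of level with GC content and gene length was removed from every library, which is called the corrected fit. Epithelial markers were high in all groups as a sum (1341 to 4087 CPM), although the group means of CDH17 and CLDN3 were at most 0.26 and 0.74 CPM. Fibroblast markers summed to between 53.2 and 203 CPM in tumors and 2.42 to 8.41 CPM in cultures, and the sums for leukocyte markers were 5.13 to 31.9 and 0.521 to 5.52 CPM. Among leukocyte markers, 13 of 18 had a count in some tumor, while TYROBP and NKG7 had none and the mean of PTPRC, the pan-leukocyte CD45 gene, was at most 0.184 CPM in any tumor group. Endothelial markers summed to at most 4.08 CPM.

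The first comparison was between Control tumors and Control cultures, which were grown from tumors of such mice. All 46 genes were higher in the tumors (edgeR quasi-likelihood test, Benjamini-Hochberg adjusted p under 0.05 over 15466 genes), where 23.1% of all genes tested were higher. In the corrected fit the count was again 46, against 17.8% of all genes. In cultures alone 38 of the 46 genes had enough counts to be tested, so the others entered this comparison through the tumors. The median log2 fold change was 2.93 for the 46 genes and 0.07 for all genes. It exceeded 3 for 22 genes and was under 2 for 9 genes.

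The 3 largest differences were in IFI genes, named for their induction by interferon. IFI44L, on chromosome 1, had 43.3, 37.0 and 42.9 CPM in the Control tumors and 0 in all 3 Control cultures. With 3 counts taken as the limit for the culture group, the tumors were at least 311-fold higher. IFI44, its neighbor on chromosome 1, had 77.8, 66.7 and 75.5 CPM in tumors and 0.509, 0.512 and 0.427 CPM in cultures, a log2 fold change of 7.20 ± 0.305 (SE, adjusted p = 4.18e-16). IFI27, a mitochondrial protein gene on chromosome 14, had 247, 233 and 273 CPM in tumors and 2.67, 1.15 and 2.85 CPM in cultures (6.82 ± 0.225, adjusted p = 1.74e-18). None of these ranges overlapped, and the culture levels of IFI44 rested on 11 counts in all. IFI44L and IFI44 had too few counts to be tested in cultures alone. They entered this comparison through the tumors, which largely set their direction in advance. IFI6, which limits the formation of viral replication sites, completed the top of the group with 373, 349.6 and 397 CPM against 5.09, 4.74 and 3.28 CPM.

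**Figure D1:**
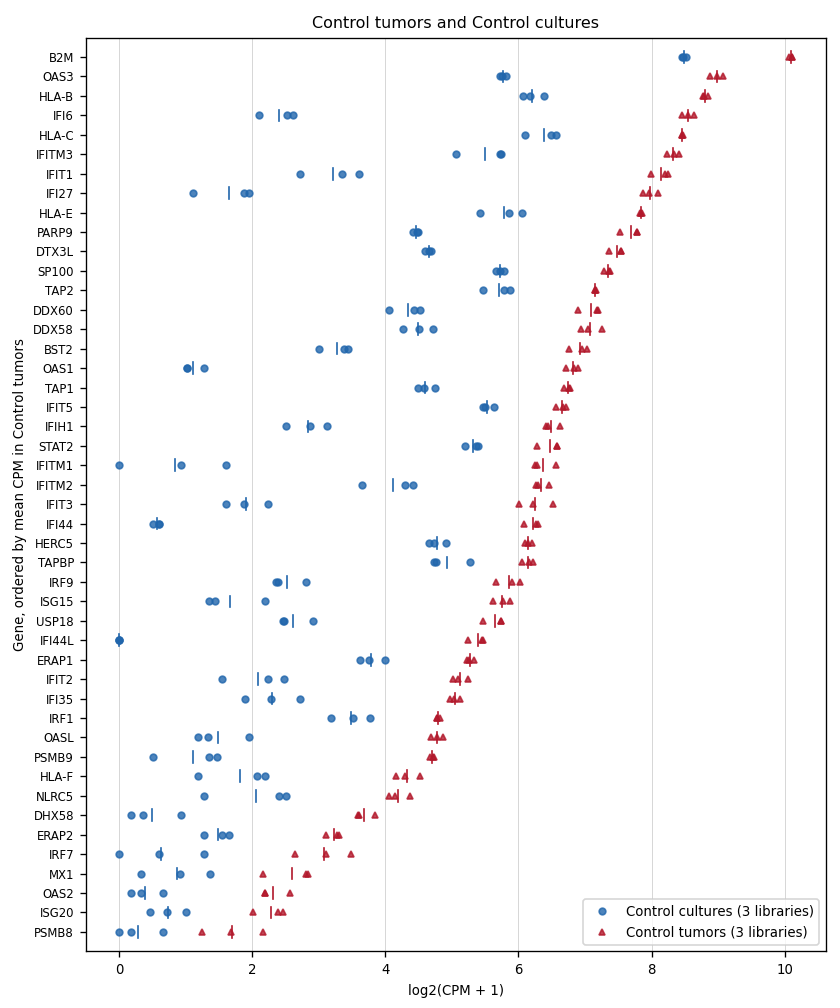
Levels of the 46 genes in 3 Control tumors (triangles) and 3 Control cultures (circles), as log2(CPM + 1) on the horizontal axis; short vertical bars are means, and genes are ordered by mean CPM in Control tumors. Every tumor point lies to the right of every culture point of its gene, and the culture points of IFI44L sit at 0.

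By role, the differences between Control tumors and Control cultures had different sizes. The IFI genes had the largest median, 6.82, followed by the IFIT genes, whose products bind foreign RNA ends, at 4.04. The group of MX1, the OAS enzymes that make the messenger for RNase L, ISG20 and BST2 had a median of 3.63, and the RNA sensors had 3.32. The MHC class I chains had 2.08 and the genes of peptide supply 2.19. Within families the range was wide. IFIT1 rose by a log2 fold change of 5.02 ± 0.217, whereas IFIT5 rose by 1.14 ± 0.101, the smallest value among the 46. OAS1 stood at 6.59 ± 0.254 and OAS3 at 3.24 ± 0.139. Among the transcription factors, IRF7 and IRF9 had 3.58 each, and STAT2 had 1.19. In cultures alone 3 of the 5 IFI genes and 4 of the 7 genes grouped with MX1 could be tested. So could 3 of 4 RNA sensors, 3 of 4 transcription factors, 7 of 8 genes of peptide supply and all genes of the other groups. The rest entered through the tumors.

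Per length of exon (RPKM, the CPM divided by the length of the gene's exons in kilobases), the order of the genes differed between tumors and cultures. In Control tumors IFI6 was highest with a mean of 431 RPKM, followed by IFITM3, which blocks viral entry, with 238, and B2M, the invariant chain of MHC class I, with 180.0. HLA-B had 146, HLA-C 140.1 and BST2, which tethers budding virus to the cell surface, 108 RPKM. In Control cultures B2M was highest with 58.7 RPKM, then IFITM3 with 33.6 and HLA-C with 33.2, and IFI6 had 5.05. The lowest in Control tumors were ISG20, an exonuclease, with 0.53, MX1 with 0.60 and OAS2 with 0.64 RPKM. The length joins all annotated exons of a gene, 7363 bases for ISG20 and 8616 for MX1 against 865 for IFI6. The order of the genes therefore depends on the annotation. Readings of HLA genes are uncertain because alleles can differ from the reference and the genes resemble each other, and HLA-B overlaps HLA-C on the same strand in the annotation.

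**Figure D2:**
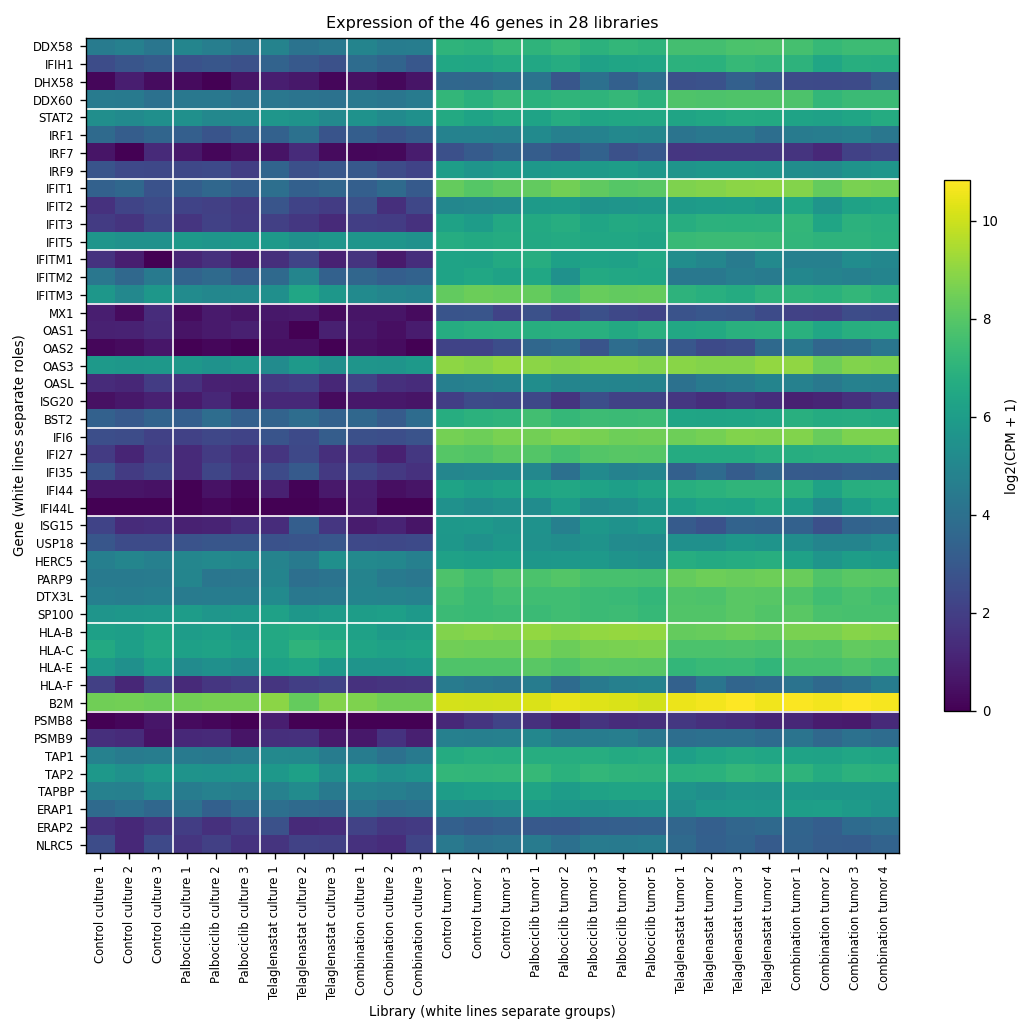
Level of each of the 46 genes (rows, grouped by role) in each of the 28 libraries (columns, grouped by condition), as log2(CPM + 1) on a color scale from dark (low) to yellow (high). The 16 tumor columns on the right are brighter than the 12 culture columns for most rows, and 39 genes had every tumor above every culture.

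The difference was not confined to the Control groups. In 39 of the 46 genes every one of the 16 tumors, treated or not, was above every one of the 12 cultures, against 4.68% of all genes tested. The 7 exceptions were IRF1, IRF7, IFITM2, ISG20, IFI35, ISG15 and PSMB8. In cultures alone 38 of the 46 genes could be tested. The rest, IFI44L and IFI44 among them, entered through the tumors, which favored such a gap in advance. ISG15, a ubiquitin-like modifier, ranged from 5.25 to 57.8 CPM in tumors and from 0.521 to 8.50 CPM in cultures. B2M ranged from 1074 to 1817 CPM and from 307 to 496 CPM.

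Other genes of the pathway moved in part with the 46. Of 48 other interferon-stimulated genes, 40 could be tested and 36 were higher and 2 lower in Control tumors than in Control cultures, with a median log2 fold change of 2.50. Of all 15466 genes tested, 3568 (23.1%) were higher and 3531 lower. Of the 17 receptor and signaling genes 6 were higher and 3 lower (median 0.07). Among 17 tested genes of nucleic acid sensing 9 were higher and 2 lower, led by the DNA sensor IFI16 with 4.25 ± 0.83. Of 16 other MHC class I assembly genes 7 were higher and 3 lower, and of 10 MHC class II genes 9 were higher and none lower. Among cultures alone, 28 of the other interferon-stimulated, 16 receptor and signaling, 15 sensing, 14 class I and 3 class II genes could be tested. The rest entered through the tumors, which largely set their direction in advance. Interferon genes themselves were barely detected. Of 21 ligands, 12 had a count in some tumor, none reached 1 CPM in every tumor, 1 could be tested in tumors, and IFNG had no count. The marker sums of fibroblasts and leukocytes were also higher in tumors (all 6 and all 4 of their tested genes). Of these markers, 1 of the fibroblast list could be tested in cultures alone, so the rest also entered through the tumors. The part of fibroblasts and leukocytes in these differences was not tested.

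Palbociclib alone was asked about next. Of the 46 genes, 5 were higher and 1 was lower in Palbociclib tumors than in Control tumors, where 2.55% of all 14848 genes tested were higher and 3.6% lower. The corrected fit also gave 5 higher and 1 lower, against 3.83% and 4.03%, and 5 genes were called in both fits. The median log2 fold change was 0.01 for the 46 genes and 0.00 for all genes, so most of the module stayed near the Control level.

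OAS2, the enzyme that makes short 2-5A chains and a gene of low level here, had 3.56, 3.55 and 4.94 CPM in Control tumors and 11.2, 13.2, 6.10, 13.5 and 10.8 CPM in Palbociclib tumors. The groups did not overlap, and the log2 fold change was 1.45 ± 0.316 (SE, adjusted p = 0.00648). Without Control tumor 2 the adjusted p was 0.05. IFIT2, which binds AU-rich RNA, had 31.3, 33.1 and 36.8 CPM in Control and 58.7, 60.8, 46.02, 49.1 and 52.8 CPM in Palbociclib tumors. All treated tumors were above all Control tumors (0.67 ± 0.135, adjusted p = 0.00359). BST2 had 108, 123 and 130.0 CPM in Control and 185, 145, 170.4, 164 and 172 CPM in Palbociclib tumors, again without overlap (0.48 ± 0.0787, adjusted p = 0.000516). HERC5, the ligase that attaches ISG15, was the gene called lower. It had 72.3, 67.3 and 69.3 CPM in Control and 51.9, 54.4, 55.8, 46.4 and 41.9 CPM in Palbociclib tumors, so every treated tumor was below every Control tumor (-0.47 ± 0.102, adjusted p = 0.00662). In a fit of all 28 libraries the calls of HERC5 (adjusted p = 0.0663) and IFIT2 (adjusted p = 0.0776) were lost, as were those of ERAP1 and HLA-B.

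The other 2 genes called belong to antigen presentation. ERAP1, the peptidase that trims peptides in the endoplasmic reticulum, rose by 0.43 ± 0.105 on the log2 scale (adjusted p = 0.0146), a call lost in 2 of 8 fits that each left out 1 library. HLA-B rose by 0.25 ± 0.0715 (adjusted p = 0.0443). That call was lost in 7 of the 8 fits and in the corrected fit, where B2M was called instead (0.22 ± 0.0672, adjusted p = 0.049). Without Palbociclib tumor 2, IFIT5 was also called lower (-0.22, adjusted p = 0.0499, from -0.18) and HLA-E higher (0.23, adjusted p = 0.0415, from 0.19). ERAP1 overlaps CAST on the opposite strand, and OAS2 overlaps a noncoding gene there.

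**Figure D3:**
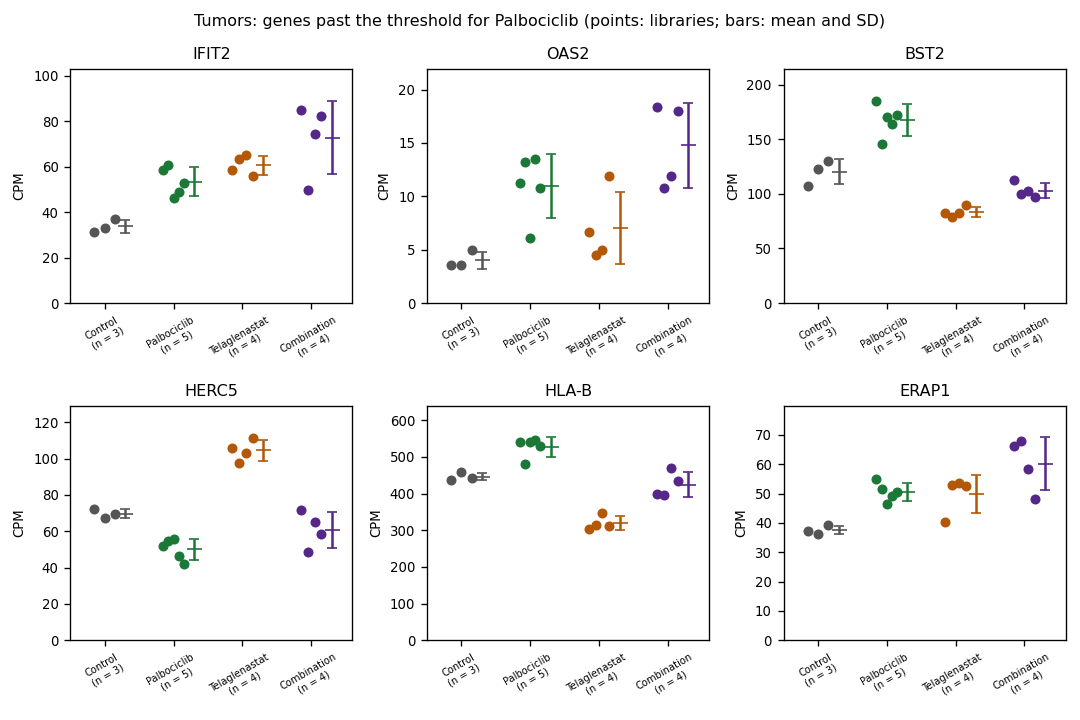
CPM of the 6 genes past the threshold in Palbociclib against Control tumors, in all 16 tumors by treatment; points are libraries, and the bar beside them gives the mean and SD. IFIT2, OAS2, BST2, HLA-B and ERAP1 are higher and HERC5 lower in all 5 Palbociclib tumors than in the 3 Control tumors.

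Among the related lists under Palbociclib, 4 of 40 other interferon-stimulated genes were higher and none was lower, with a median of 0.16 (6 and 0 after correction). Of all genes tested, 2.55% were higher and 3.6% lower (3.83% and 4.03% after correction). The 4 genes included SAMD9L, a translational inhibitor (1.24 ± 0.204), APOL1 (1.14 ± 0.204) and the adhesion molecule ICAM1 (0.80 ± 0.223). IFI16 was higher by 1.23 ± 0.335. None of the 17 receptor and signaling genes and none of the 10 MHC class II genes passed edgeR's adjusted threshold, with 2 and 3 of them at an unadjusted p under 0.05. Leukocyte markers summed to 23.2 to 31.9 CPM in Palbociclib tumors and 16.6 to 21.9 CPM in Control tumors. The means of CD68 (10.3 CPM in Control and 16.8 in Palbociclib tumors) and LYZ (3.35 and 6.42) were higher. Those of CSF1R (3.56 and 1.9) and LAPTM5 (1.38 and 0.80) were lower. None of these 4 tested markers passed the threshold (median log2 fold change -0.04). The part of leukocytes in the rises of the related lists was not tested.

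Telaglenastat alone split the module. Of the 46 genes, 15 were higher and 21 lower in Telaglenastat than in Control tumors, against 22.6% and 28.5% of all genes, and the median log2 fold change was -0.23 for the 46 genes and 0.03 for all genes. The direction followed GC content. The 18 genes under 50% GC had 15 higher and 0 lower with a median of 0.52, whereas the 28 genes from 50% GC had 0 higher and 21 lower with a median of -0.72. Across the 46 genes, which share libraries and are not independent, Spearman's rho between change and GC content was -0.864. In the corrected fit 8 genes were higher and 7 lower (5.59% and 7.58% of all genes), rho was -0.204, the median was 0.10, and 8 genes kept their call and direction.

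**Figure D4:**
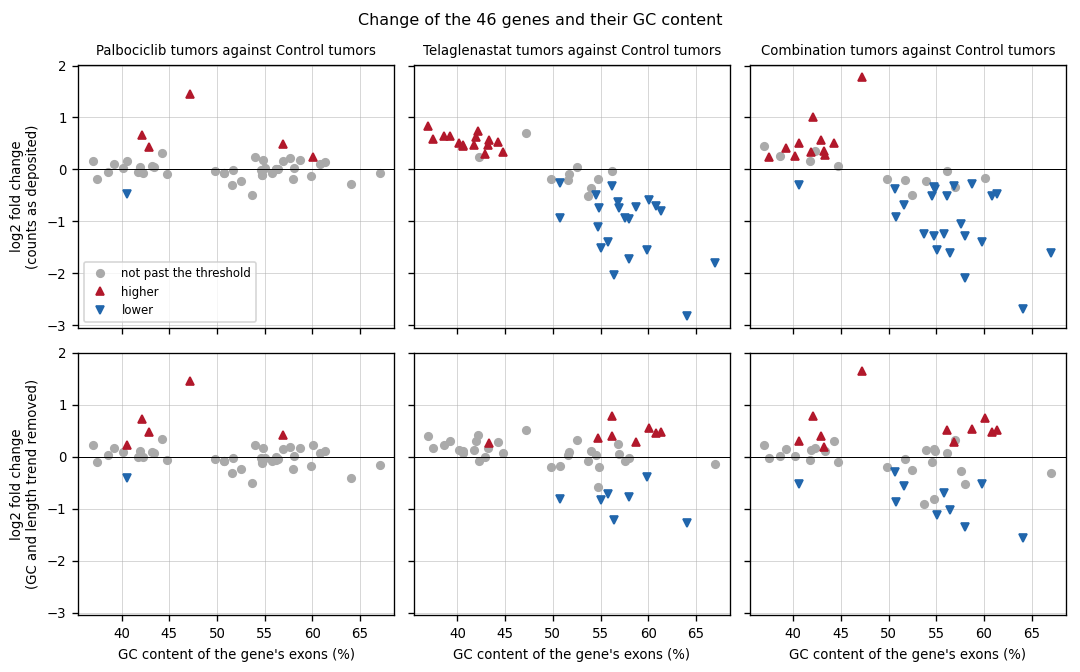
Log2 fold change of the 46 genes against the GC content of their exons (%), for Palbociclib, Telaglenastat and Combination tumors against Control tumors; the upper row uses the counts as deposited and the lower row the counts after the GC and length trend was removed. Red triangles are higher and blue triangles lower past the threshold, and gray circles are not past it. In the upper row the Telaglenastat points fall from left to right (rho -0.864), and in the lower row they do so less (rho -0.204).

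The genes that fell most in Telaglenastat tumors did so in every library. ISG15 had 53.6, 57.8 and 48.2 CPM in Control tumors and 7.69, 5.72, 9.87 and 9.31 CPM in Telaglenastat tumors. The groups were far apart (-2.82 ± 0.231, adjusted p = 1.78e-08), and the corrected difference was -1.27 ± 0.183 (adjusted p = 7.78e-05). IFITM2, which keeps virus from fusing with endosomes, had 77.4, 86.9 and 75.6 CPM against 19.5, 19.3, 23.97 and 21.9 CPM. It fell by 2.03 on the log2 scale (SE 0.178, adjusted p = 3.37e-08) and by 1.21 in the corrected fit. IRF7, the transcription factor that amplifies interferon production, had 5.23, 7.61 and 10.2 CPM against 2.26, 2.37, 2.35 and 2.40 CPM. Its groups did not overlap either (-1.81 ± 0.316, adjusted p = 9.07e-05), but its corrected difference was -0.13 with an adjusted p of 0.853. IRF7 has the highest GC content of the module, 67.0%.

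IFITM1 and IFITM3 fell with IFITM2, by 1.51 and 1.56 on the log2 scale (SE 0.173 and 0.107) and by 0.84 and 0.39 after correction (adjusted p = 0.000906 and 0.00115). IFI27 had 101, 101, 99.9 and 113 CPM in Telaglenastat tumors, all below the Control tumors (-1.39 ± 0.0911, corrected -0.72 ± 0.0673). IFI35 (-1.73 ± 0.21, corrected -0.77 ± 0.167) and PSMB9, the inducible beta subunit of the immunoproteasome (-0.93 ± 0.15, corrected -0.81 ± 0.147), completed the 7 genes lower in both fits. IFITM1 and IFITM2 overlap on the same strand and PSMB9 overlaps TAP1 and PSMB8 on the opposite strand, so reads between them cannot be assigned with certainty.

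The genes that rose in Telaglenastat tumors were led by IFI44L, with 67.1, 80.1, 77.4 and 93.4 CPM against 43.3, 37.0 and 42.9 CPM in Control tumors. There was no overlap (0.84 ± 0.208, adjusted p = 0.00211). IFIT2 had 58.7, 63.2, 65.0 and 55.9 CPM (0.74 ± 0.141, adjusted p = 0.000222), and IFI44 had 111, 119, 134 and 134 CPM (0.65 ± 0.124, adjusted p = 0.000203). Both were above every Control tumor. After correction these differences were 0.40, 0.42 and 0.31 with adjusted p of 0.205, 0.0516 and 0.0931. All 4 IFIT genes were called higher as deposited (0.53 to 0.74) and none after correction. The same held for the sensors DDX58 (RIG-I), IFIH1 (MDA5) and DDX60. PARP9, an ADP-ribosyltransferase partner of DTX3L, was the gene called higher in both fits (0.57 ± 0.097, corrected 0.27 ± 0.0842, adjusted p = 0.0385).

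Some calls changed direction between the fits. As deposited, HLA-B, HLA-C and HLA-E, MHC class I heavy chains, and TAPBP, the tapasin that loads them, were lower in Telaglenastat tumors (-0.59 ± 0.0743, -0.80 ± 0.0798, -0.72 ± 0.0771 and -0.71 ± 0.0882). In the corrected fit they were higher (0.55 ± 0.0824, 0.47 ± 0.0713, 0.29 ± 0.075 and 0.47 ± 0.0834). IRF9 turned in the same way, from -0.31 to 0.41. IFI6 was not called as deposited (-0.03 ± 0.101) and was higher after correction (0.78 ± 0.129, adjusted p = 0.000286), as was OAS3 (-0.18 to 0.36). No direction is given for these 7 genes.

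The remaining genes of the module were called in the fit of the deposited counts, in neither fit or for low counts with wide errors. DHX58, a brake on RIG-I (-0.95 ± 0.277), IRF1 (-0.74 ± 0.135), ISG20 (-1.11 ± 0.369), HLA-F (-0.73 ± 0.24), TAP1 (-0.50 ± 0.0805), TAP2 (-0.27 ± 0.0901), BST2 (-0.64 ± 0.0831) and NLRC5 (-0.94 ± 0.171) were lower as deposited, and none of them was called after correction. DTX3L, SP100, HERC5, B2M and ERAP1 were higher as deposited (0.30 to 0.48) and not after correction. STAT2, MX1, OAS1 and ERAP2 passed in none of the 5 comparisons between tumors, in either fit. OAS1 was at 104, 113 and 118 CPM in Control and 89.6, 95.9, 115 and 121 CPM in Telaglenastat tumors, and the ranges overlapped. MX1, the dynamin-like antiviral GTPase, was at 3.15 to 6.70 CPM over all 16 tumors, and PSMB8 at 0.702 to 3.49 CPM.

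**Figure D5:**
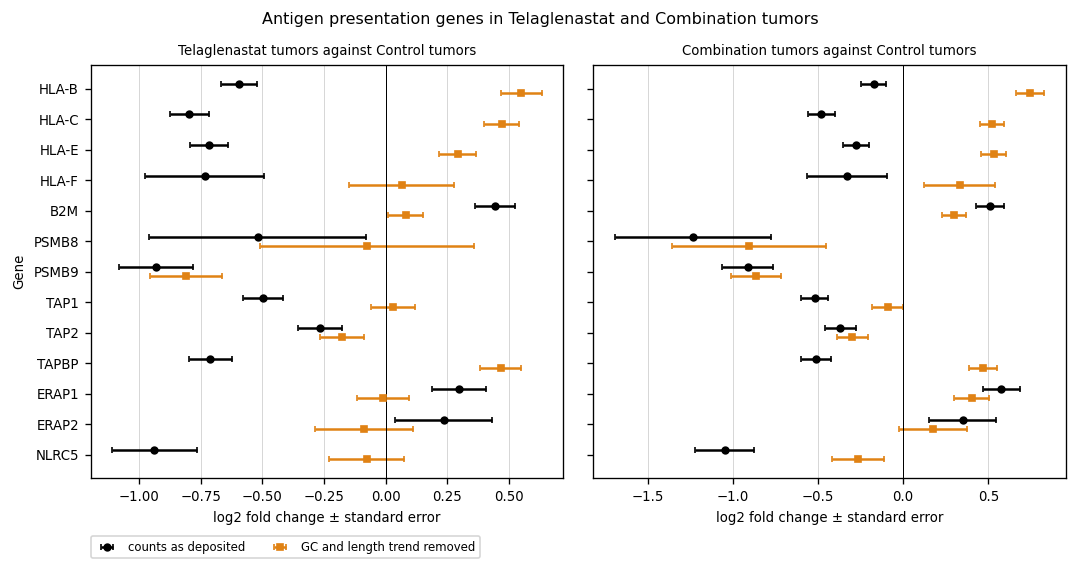
Log2 fold change with its standard error for the 13 antigen presentation genes in Telaglenastat (left) and Combination tumors (right) against Control tumors, from the counts as deposited (black circles) and after removal of the GC and length trend (orange squares); the scales of the 2 panels differ. HLA-B, HLA-C, HLA-E and TAPBP lie left of 0 as deposited and right of 0 after correction, while PSMB9 lies left of 0 in both.

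In Combination tumors 11 of the 46 genes were higher and 23 lower than in Control tumors, against 17.6% and 26.9% of all genes, with a median of -0.31 and of -0.04 for all genes. The corrected fit gave 11 higher and 10 lower (13% and 13.1% of all genes) with a median of 0.02, and 15 genes kept call and direction. Spearman's rho with GC content was -0.738, and -0.144 after correction. These 3 treatment comparisons share the same Control tumors.

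OAS2 had 18.4, 10.8, 11.9 and 17.96 CPM in Combination tumors, all above the 3.55 to 4.94 CPM of Control tumors (1.78 ± 0.327, adjusted p = 0.00018, corrected 1.65 ± 0.316). IFIT2 had 84.9, 49.8, 74.4 and 82.1 CPM, with the lowest value in Combination tumor 2 still above Control (1.01 ± 0.141, adjusted p = 9.17e-06, corrected 0.79 ± 0.139). ERAP1 had 66.3, 68.0, 58.5 and 48.1 CPM against 37.3, 36.3 and 39.2 CPM (0.58 ± 0.11, adjusted p = 0.000257, corrected 0.40 ± 0.105). These 3 genes had also risen in Palbociclib tumors. SP100, a nuclear body protein (0.35 ± 0.0803, corrected 0.20 ± 0.0691), and B2M (0.51 ± 0.0817, corrected 0.30 ± 0.0702) were higher in both fits as well.

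The falls in Combination tumors again included ISG15, which had 9.36, 5.25, 9.82 and 10.9 CPM, far below Control (-2.69 ± 0.229, adjusted p = 5.5e-08, corrected -1.57 ± 0.18). IFI35 had 30.5, 31.8 and 33.9 CPM in Control and 7.55, 7.35, 8.84 and 8.39 CPM in Combination tumors (-2.09 ± 0.215, adjusted p = 2.98e-07, corrected -1.36 ± 0.172). IFITM2 had 30.9, 27.5, 25.1 and 28.6 CPM (-1.62 ± 0.174, adjusted p = 4.85e-07, corrected -1.02 ± 0.152). None of these groups overlapped. IFITM1, IFITM3, IFI27 and PSMB9 were also lower in both fits, with corrected differences from -1.12 to -0.53. USP18, which removes ISG15 and damps receptor signaling, was lower with and without correction (-0.68 ± 0.122 and -0.57 ± 0.124), as were HERC5 (-0.30 ± 0.108 and -0.53 ± 0.103) and TAP2, a chain of the peptide transporter (-0.37 ± 0.0903 and -0.30 ± 0.0891). HLA-C, HLA-E, TAPBP and BST2 changed from lower to higher between the fits. HLA-B (-0.17 to 0.75, corrected adjusted p = 2.39e-06) and IFI6 (-0.02 to 0.51, corrected adjusted p = 0.00535) were called higher after correction and not as deposited, so no direction is given for these 6 genes. A further 9 genes were lower (DHX58, IRF1, IRF7, IRF9, OAS3, ISG20, PSMB8, TAP1 and NLRC5, -1.61 to -0.33) and 6 higher (DDX58, IFIT1, IFIT3, IFIT5, IFI44 and PARP9, 0.25 to 0.51) as deposited only.

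Around the module, other interferon-stimulated genes went both ways. In Telaglenastat tumors 13 were higher and 11 lower of 40 tested (median 0.20), and in Combination tumors 9 were higher and 7 lower (median 0.05). Of all genes tested, 22.6% were higher and 28.5% lower with Telaglenastat, and 17.6% and 26.9% with the Combination. The counts of these lists stand beside those shares and are not read as particular to the pathway. LY6E fell by 2.39 and 1.84 on the log2 scale (SE 0.169 and 0.163) and was lower after correction too. GBP1, a guanylate-binding GTPase, rose by 1.93 ± 0.412 in Combination tumors (corrected 1.73, adjusted p = 0.00332). After correction the counts of other interferon-stimulated genes were 3 and 4 with Telaglenastat (median 0.02) and 9 and 7 with the Combination (median 0.05). The corrected shares of all genes were 5.59% and 7.58% with Telaglenastat, and 13% and 13.1% with the Combination. Of the 17 receptor and signaling genes, 6 were higher and 4 lower with Telaglenastat and 2 and 4 with the Combination, as deposited. Of 17 tested sensing genes the counts were 3 and 6, and 2 and 6. Of 16 other MHC class I assembly genes they were 4 and 6, and 4 and 5, and of 10 MHC class II genes 0 and 4, and 0 and 2. With Telaglenastat the corrected counts were 3 higher and 1 lower for receptors and signaling, 0 and 0 for sensing, 1 and 0 for MHC class I assembly, and 0 and 1 for MHC class II. With the Combination they were 2 and 2, 2 and 4, 5 and 1, and 1 and 1 in that order.

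Marker sums and reference genes moved with these treatments as well. Epithelial markers summed to 1582 to 1745 CPM in Telaglenastat, 2298 to 2579 CPM in Combination and 2702 to 3237 CPM in Control tumors. Of 6 tested, 1 was higher and 4 lower with Telaglenastat (0 and 4 after correction). With the Combination 2 were higher and 3 lower (2 and 2 after correction). Fibroblast markers summed to 53.2 to 67.5 CPM in Telaglenastat, 103 to 156 CPM in Combination and 161 to 203 CPM in Control tumors, and leukocyte markers to 5.13 to 11.9, 11.4 to 18.2 and 16.6 to 21.9 CPM. Among 8 reference genes, 1 was higher and 4 lower with Telaglenastat, and 0 and 4 with the Combination. ACTB turned from -0.65 to 0.41 between the fits for Telaglenastat, and RPLP0 was lower in both (-1.25 and -0.83). The part of these and of the higher mitochondrial share of Combination tumors in the differences was not tested.

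Adding Telaglenastat to Palbociclib was read from Combination against Palbociclib tumors. Of the 46 genes, 9 were higher and 23 lower, against 20.1% and 27.5% of all genes, with medians of -0.34 and 0.02. After correction 5 were higher and 8 lower (6.81% and 7.61%), the median was -0.05, and 8 kept call and direction. The 5 rises after correction held none of the 9 seen as deposited. HLA-B (-0.42 to 0.51), HLA-C (-0.62 to 0.41), HLA-E (-0.47 to 0.35) and TAPBP (-0.62 to 0.39) went from called lower to called higher, and IFI6 from no call to higher (-0.04 to 0.57), so no direction is given for them. Without Palbociclib tumor 2, IFIH1, IFI44L and DTX3L were also called higher (0.28, 0.43 and 0.19) and HLA-F lower (-0.64). IFIT5 had 91.5, 98.6, 85.9, 85.3 and 78.0 CPM in Palbociclib and 139, 126, 127 and 117 CPM in Combination tumors (0.43 ± 0.0664, adjusted p = 2.8e-05), without overlap. B2M had 1191, 1381, 1262, 1178 and 1094 CPM against 1737, 1571, 1766 and 1618 CPM (0.35 ± 0.0707, adjusted p = 0.00046). SP100 had 168, 181, 167, 172 and 153 CPM against 266, 207, 205 and 205 CPM (0.28 ± 0.0699, adjusted p = 0.00241). None of these 3 rises was called after correction, where the differences were 0.07, 0.08 and 0.11.

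ISG15, IFI35 and IFITM2 had the largest falls. ISG15 had 44.4, 25.0, 51.9, 44.3 and 53.4 CPM in Palbociclib tumors, all above the Combination tumors (-2.41 ± 0.214, adjusted p = 5.95e-08, corrected -1.15 ± 0.168). IFI35 had 32.3, 15.2, 35.02, 27.2 and 29.8 CPM (-1.90 ± 0.199, adjusted p = 2.82e-07, corrected -1.12 ± 0.159), and IFITM2 had 86.7, 43.6, 94.5, 89.2 and 83.7 CPM (-1.62 ± 0.159, adjusted p = 1.38e-07, corrected -0.98 ± 0.138). Palbociclib tumor 2 was the lowest of its group for all 3 genes and still above every Combination tumor. NLRC5, the transactivator of MHC class I genes, was lower in both fits (-1.28 ± 0.155, corrected -0.46 ± 0.137, adjusted p = 0.0268).

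Adding Palbociclib to Telaglenastat was read from Combination against Telaglenastat tumors, where 5 genes were higher and 6 lower, against 8.93% and 9.89% of all genes. After correction 5 were higher and 5 lower (8.56% and 7.07%), with 5 called the same way in both fits. The median was -0.03, and -0.14 after correction. HLA-E had 145, 158, 159 and 138 CPM in Telaglenastat and 196, 195, 224 and 191 CPM in Combination tumors, with no overlap (0.44 ± 0.0727, adjusted p = 0.000279, corrected 0.24 ± 0.0701 with an adjusted p of 0.024). HLA-B had 304, 314, 347 and 313 CPM against 399, 395, 469 and 435 CPM (0.42 ± 0.0696, adjusted p = 0.000263). HLA-C had 219, 218, 224 and 212 CPM against 255, 246, 297 and 280.1 CPM (0.31 ± 0.0751, adjusted p = 0.00584). The rises of HLA-B and HLA-C were not called after correction (0.20 and 0.05). OAS2 was higher in both fits (1.08 ± 0.289 and 1.12 ± 0.279), although its groups overlapped.

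HERC5 had the largest fall, from 106, 97.7, 103 and 111 CPM with Telaglenastat to 71.6, 48.5, 64.8 and 58.4 CPM with the Combination (-0.77 ± 0.101, adjusted p = 2.02e-05, corrected -0.64 ± 0.0958). USP18 went from 42.2, 42.8, 51.8 and 48.2 CPM to 39.1, 28.4, 28.9 and 36.2 CPM (-0.48 ± 0.116, adjusted p = 0.00659, corrected -0.59 ± 0.119). DDX60, a helicase that aids RIG-I, went from 227, 224, 231 and 227 CPM to 222, 145, 167 and 164 CPM (-0.38 ± 0.099, adjusted p = 0.0104), a difference of -0.20 after correction that was not called. In none of the 3 did the groups overlap, though for DDX60 Combination tumor 1 lay just under the lowest Telaglenastat tumor. IFIT5 was lower in both fits (-0.34 ± 0.0696 and -0.20 ± 0.0579).

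In the cultures, which had grown without drug, 38 of the 46 genes had enough counts to be tested. None passed edgeR's adjusted threshold in any of the 5 comparisons. The share of all 13985 genes called was 0% for Palbociclib, Telaglenastat and both Combination comparisons with a single drug, and 0.00715% for Combination against Control cultures. At an unadjusted p under 0.05 the Palbociclib cultures had 1 of the 38 genes, the Telaglenastat cultures 2 and the Combination cultures 3 against Control, and there were 2 and 7 for the Combination against Palbociclib and against Telaglenastat cultures. DESeq2 called none except 2 lower genes in the last of these. ISG15 had 3.56, 1.54 and 1.71 CPM in Control, 0.975, 1.14 and 1.64 CPM in Palbociclib, 1.60, 8.50 and 2.25 CPM in Telaglenastat and 0.770, 1.10 and 0.521 CPM in Combination cultures. All Combination cultures were below all Telaglenastat cultures (-2.33 ± 0.645, adjusted p = 0.277), and Telaglenastat culture 2 stood far above the others. IFI44L was at 0 in 9 of the 12 cultures and at most 0.770 CPM.

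Whether a drug changed these genes differently in tumors and in cultures was tested with interaction terms over all 28 libraries. For Palbociclib the difference passed for HLA-E (0.69 ± 0.173, adjusted p = 0.0374, where 1.39% of all genes passed), and for none after correction (1.03% of all genes; HLA-E 0.35, adjusted p = 0.386). HLA-E had 227, 228 and 229.7 CPM in Control and 268, 229, 273, 269 and 257 CPM in Palbociclib tumors, a difference that was not past the threshold, and it stood at 57.0, 41.9 and 65.5 CPM in Control and 36.7, 42.8 and 36.1 CPM in Palbociclib cultures. For Telaglenastat 17 genes passed, 5 higher and 12 lower, against 34.1% of all genes. After correction 6 passed, against 3.8%, and ISG15 (-1.77 ± 0.409), IFITM2 (-1.03 ± 0.295), IFITM3 (-0.55 ± 0.138) and IFI27 (-0.95 ± 0.269) were lower in both fits. For the Combination none passed in edgeR, with or without correction (2.91% and 2.64% of all genes), 7 were at an unadjusted p under 0.05, and DESeq2 called 0 higher and 3 lower.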

How the data were processed

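Poly(A) RNA of 16 tumors and 12 cultures (8 groups) was sequenced as 60-base single-end reads from libraries with uracil in the second strand. The authors deposited whole-number read counts per gene, made with STAR from reads written by CASAVA 1.8 and aligned to hg38, per the submitters' processing notes; nothing was normalized. The annotation release and the strand setting of the counting are not given in the sources used here, so overlapping genes are uncertain. Doses, days and mouse age come from the study's methods.

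Of 58278 genes, 22232 had no count; 57940 matched GENCODE release 29, and the rest held 0.0287% of the counts. Counts were tested with the quasi-likelihood test of edgeR 4.0.16 in R 4.3.3 (TMM, filterByExpr with a minimum count of 10, Benjamini-Hochberg over all genes tested, threshold 0.05). Tumors and cultures were fitted separately, and tumor against culture contrasts in a fit of all 28 libraries. The corrected fit removed from each library a spline (4 degrees of freedom) of log2 level on GC content and on exon length. CPM values use 1 scaling of all 28 libraries. Alternatives included DESeq2 1.42.0, other size factors, no filter, a replicate block and leaving out each library. The scripts were tested on simulated data.

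Labels do not say that replicates came from separate animals. The study's methods describe an injection on the right flank of each mouse and 3 independent cell lines per treatment. They do not tie the libraries to animals, so p-values measure the spread between these samples. Same-numbered tumors did not deviate together (21 pairs, r from -0.128 to 0.0896). For same-numbered cultures r ran from -0.423 to 0.14 (18 pairs, 3 over 0.1). Samples were not paired by number. With so few samples per group, these values cannot exclude a batch shared by number. The ± values are standard errors from the fit and include the spread between libraries, whereas the limit of 3 counts covers counting error only. Values in every library are given for up to 3 rises and 3 falls per comparison, the largest among genes past the threshold whose groups do not overlap; other genes complete a role group, and at most 3 are named per related list. Some genes of those lists are not reported here by name. OAS2, HLA-E, ISG15 and IFI44L values outside that rule, and genes that behaved alike in both fits, were named after their values were seen. The 46 genes and all lists were chosen with earlier results of these data known.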

Additional observations from a re-analysis of the deposited data

Results flagged for a closer look

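In groups of 4 or 5 tumors, 15 of 138 sets of values had a library set apart from the rest of its group (chance alone sets apart about 1 in 20). Palbociclib tumor 2 was low for IFITM2 (43.6 CPM, others 83.7 to 94.5), IFITM3 (228 CPM, others 298 to 320.1), IFI27 (195 CPM, others 243 to 257), HLA-B (481 CPM, others 530.4 to 547), HLA-C (332 CPM, others 388 to 408) and NLRC5 (15.2 CPM, others 20.8 to 22.2). Other Palbociclib tumors set apart were tumor 4 for OAS1 (94.0 CPM, others 111 to 114) and tumor 1 for OASL (38.3 CPM, others 27.9 to 29.7). In Telaglenastat tumors, IFI27 was high in tumor 4 (113 CPM, others 99.9 to 101), SP100 high in tumor 3 (262 CPM, others 233 to 237), TAPBP low in tumor 2 (41.6 CPM, others 46.7 to 47.5) and ERAP1 low in tumor 1 (40.3 CPM, others 52.4 to 53.7). In Combination tumors, DHX58 was high in tumor 4 (7.51 CPM, others 4.35 to 4.60), SP100 high in tumor 1 (266 CPM, others 205 to 207) and HLA-E high in tumor 3 (224 CPM, others 191 to 195).

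For 18 effects the difference between tumors and cultures passed the interaction test of edgeR (adjusted p under 0.05). These were 17 of the 46 genes with Telaglenastat, where 34.1% of all genes passed, and 1 with Palbociclib, where 1.39% did. With Palbociclib this was HLA-E, 0.69 higher in tumors on the log2 scale. With Telaglenastat the tumor effect was above the culture effect by 0.68 for DDX58, 0.92 for DDX60, 0.91 for IFIT3, 0.58 for IFIT5 and 0.78 for PARP9. The tumor minus culture effect was -0.82 for IRF9, -2.58 for IFITM1, -1.97 for IFITM2, -1.85 for IFITM3, -0.88 for BST2, -1.64 for IFI27 and -1.90 for IFI35. It was -3.63 for ISG15, -0.84 for HLA-B, -1.09 for HLA-C, -0.92 for HLA-E and -0.72 for TAP1. ISG15, IFITM2, IFITM3 and IFI27 passed after the GC and length correction too. Every other effect listed here, with either drug, lost its call with the correction. For IRF9, HLA-B, HLA-C and HLA-E the Telaglenastat calls in tumors turned between the fits. Their signs above hold for the counts as deposited, and no direction is given for them. The Telaglenastat cultures did not pass on their own.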

How the results depend on the processing

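The count of 46 genes higher in Control tumors than in Control cultures was 46 under every alternative. The GC and length correction (as in the report) left 8 higher and 7 lower genes for Telaglenastat, 10 lower for the Combination, 5 higher and 8 lower for Combination against Palbociclib, 0 for the Palbociclib interaction, and 2 higher and 4 lower for the Telaglenastat interaction. Adding a replicate block to it gave 2 lower for Palbociclib, 6 higher and 7 lower for Telaglenastat, 10 lower for the Combination, 5 higher and 9 lower for Combination against Palbociclib, 3 lower for Combination against Telaglenastat, 0 for the Palbociclib interaction, and 0 higher and 2 lower for the Telaglenastat interaction. The replicate block without correction gave 5 higher genes for Combination against Palbociclib and 0 for the Palbociclib interaction, with 15 higher and 21 lower for Telaglenastat as before, and moved no other count by over 1.5 times. The correction without Palbociclib tumor 2, chosen after seeing the data, gave 9 lower genes for Combination against Palbociclib.

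In a fit of all 28 libraries there were 2 higher and 0 lower genes for Palbociclib, 15 lower for the Combination and 6 lower for Combination against Telaglenastat cultures. DESeq2 gave 2 lower genes in that culture comparison, 2 higher and 1 lower for the Palbociclib interaction and 3 lower for the Combination interaction. Without the filter on low counts, these were 4, 2, 1 and 4, with 3 higher for the Telaglenastat interaction and 10 lower for Combination against Telaglenastat tumors. The cause of these shifts was not tested. Of the 31 differences given for every library as largest rises and falls, 10 lost their call with the correction and none turned. Among all 46 genes, called falls became called rises with the correction for 5 genes with Telaglenastat, 4 with the Combination and 4 in Combination against Palbociclib, as named in the report.

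Leaving out 1 library at a time gave 2 to 6 higher (3 without Control tumor 1, 2 without Control tumor 2) and 1 to 2 lower genes (2 without Palbociclib tumor 2, IFIT5 being added) for Palbociclib, 14 to 15 and 19 to 21 for Telaglenastat, and 5 to 13 (5 without Control tumor 2) and 20 to 23 for the Combination. Combination against Palbociclib gave 4 to 15 higher (4 without Combination tumor 1, 5 without Combination tumor 3 or Palbociclib tumor 4, 15 without Combination tumor 2) and 21 to 24 lower, and Combination against Telaglenastat 5 to 7 and 4 to 9. The culture counts were 0 except for Combination against Telaglenastat, 0 to 1 higher and 0 to 4 lower, the latter without Telaglenastat culture 1. The interactions gave 0 to 2 higher for Palbociclib (2 without Palbociclib tumor 2, Control culture 2 or Palbociclib culture 2, and 0 without any other library), 2 to 8 higher for Telaglenastat (2 without Control tumor 2 or Telaglenastat culture 2, 8 without Telaglenastat culture 1) with 10 to 17 lower, and 0 to 1 lower for the Combination (1 without Control culture 1). At these depths, ISG20, MX1, OAS2, PSMB8 and IRF7, with few counts in cultures, have wide errors.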
